A study of Rattus norvegicus with 9 samples.

Results

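Mitochondrial complex I, the NADH:ubiquinone oxidoreductase, was followed in rat kidney RNA through the genes that the array names with the prefix Nduf. These genes encode the nuclear subunits of the complex and a group of assembly factors. Gene probes of the array whose name starts with Nduf were taken, control probes left out, and split by prefix into Ndufa (with Ndufab1), Ndufb, Ndufc, Ndufs, Ndufv and Ndufaf. The rule gave 47 gene names, carried by 61 probes, of 26115 gene names on the array. After the filter on low signal, 59 of the 61 probes and 46 of the 47 genes entered the comparison, out of 13764 genes tested in all.

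The kidneys came from Fisher F344 donor rats and had undergone 20 min of warm ischaemia before removal, a model of donation after circulatory death. The NP group held 5 kidneys. Their treatment label calls them not perfused, as do the study's methods, while their sample titles name 4 hrs of cold perfusion with Belzer solution, so the name NP is used here for the group. The MSC group held 4 kidneys perfused for 4 hrs at 4°C with Belzer solution, an organ preservation fluid, to which 3000000 mesenchymal stem cells (MSC) had been added. These MSC came from the bone marrow of Sprague Dawley rats carrying EGFP. If NP kidneys were indeed not perfused, perfusion and MSC cannot be told apart in this comparison. Each sample had an array of its own. Values below are log2 intensities after normalisation between arrays, and differences are MSC minus NP on that log2 scale.

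Complex I is the entry point of electrons from NADH into the respiratory chain. Its matrix arm holds an N module, which oxidises NADH, and a Q module, which passes the electrons to ubiquinone, and its membrane arm pumps protons. Core subunits carry the redox centres and the proton channels, and are encoded partly in the nucleus and partly in mitochondrial DNA. Accessory subunits surround this core, and assembly factors help to build the complex without staying in it. Tubule cells of the kidney depend on oxidative phosphorylation for ion transport, and complex I is a known source of superoxide when oxygen returns after ischaemia.

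Shown are the probes of Ndufs8, Ndufaf7 and Ndufa9, members whose MSC arrays all lay above all NP arrays and whose probe crosses an intron, so that spliced RNA is the match. In all, 12 probes of members cross an intron. Each is 60 bases long, 5′ to 3′ in the sense of the transcript, with the span given in rn4, the build of the array's design. Ndufs8 lies on chr1:206435873-206436371 (minus strand), Ndufaf7 on chr6:1720961-1721919 (plus strand) and Ndufa9 on chr4:163221522-163223453 (minus strand).
Ndufs8: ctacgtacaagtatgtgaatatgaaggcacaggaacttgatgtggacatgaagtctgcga
Ndufaf7: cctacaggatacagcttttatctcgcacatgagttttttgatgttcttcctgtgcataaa
Ndufa9: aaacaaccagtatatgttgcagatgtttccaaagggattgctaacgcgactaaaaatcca
On the genome the Ndufs8 probe spans 499 bases, the Ndufaf7 probe 959 bases and the Ndufa9 probe 1932 bases. Each has at least 1 forward reading frame without a stop codon.

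No complex I gene differed between MSC and NP kidneys at an FDR under 0.05 in limma's linear model, and 0% of all genes tested did (0 of 13764). At an unadjusted limma p under 0.05, 4 of the 46 members were higher in MSC kidneys (Ndufaf7, Ndufs8, Ndufs1 and Ndufb3) and 0 were lower. That is 8.7% of the members higher, beside 6.65% of all genes higher and 5.11% of all genes lower at the same limit. All 4 MSC arrays were above all 5 NP arrays for 4 members (Ndufaf7, Ndufs8, Ndufs1 and Ndufa9), and for 3.16% of all genes. No member had all MSC arrays below all NP arrays, a pattern seen in 2.16% of all genes. The median difference over the 46 members was 0.02, with 27 higher and 19 lower, beside a median of -0.01 over all genes.

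Most members differed little. The difference was under 0.1 in size for 31 of the 46 members and under 0.2 for 42. For 43 members the 95% interval of the difference lay within a 1.5-fold change in either direction, and for 36 within 1.3-fold. The 3 members whose interval reached past 1.5-fold, in each case upwards, were Ndufa9, Ndufaf7 and Ndufs1. The median standard error was 0.09 over the members and 0.12 over all genes.

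**Figure D1:**
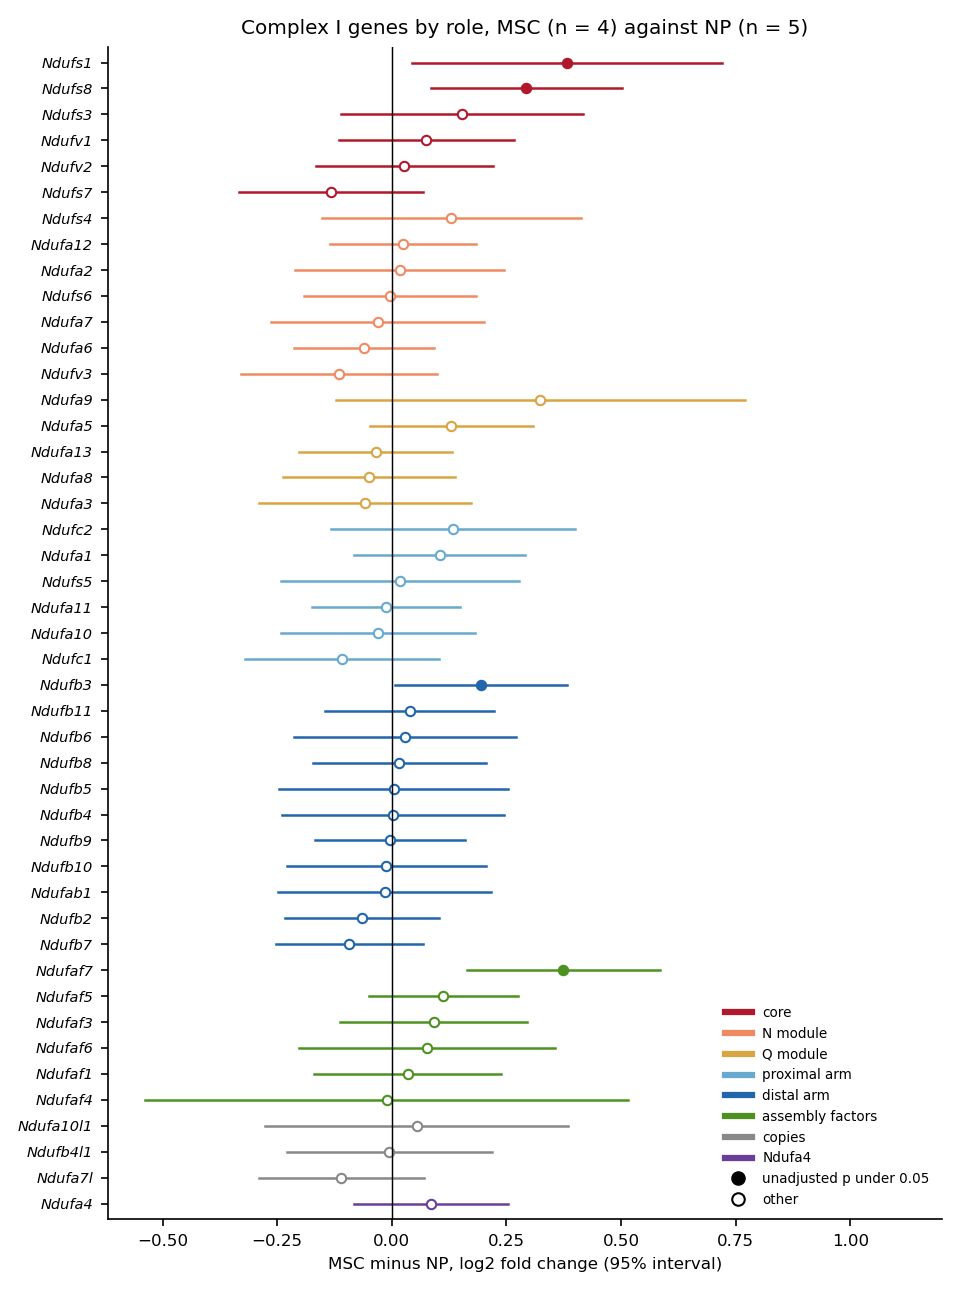
Difference between MSC (n = 4) and NP (n = 5) arrays for complex I genes tested, as log2 fold change with its 95% interval from limma, ordered by role. Filled points are the 4 genes at an unadjusted p under 0.05 (Ndufs1, Ndufs8, Ndufb3 and Ndufaf7); all points drawn except Ndufs1, Ndufs8, Ndufaf7 and Ndufa9 lie within 0.2 of 0.

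Of the core subunits encoded in the nucleus, Ndufs8 and Ndufs1 had groups that did not overlap. Ndufs8 carries iron-sulphur clusters in the Q module. Its log2 intensity was 14.28, 13.96, 14.27, 14.27 and 14.38 in NP 1 to NP 5, and 14.58, 14.47, 14.55 and 14.50 in MSC 1 to MSC 4. The groups did not overlap, and NP 2 was the lowest array. The mean was 14.23 ± 0.16 (SD, n = 5) in NP and 14.53 ± 0.05 (SD, n = 4) in MSC, a difference of 0.29 (SE 0.09, limma FDR = 0.333) or 1.23-fold.

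Ndufs1 is the large iron-sulphur subunit of the N module. It read 15.51, 14.83, 15.35, 15.60 and 15.57 in NP 1 to NP 5 and 15.82, 15.63, 15.82 and 15.75 in MSC 1 to MSC 4. The groups touched closely without overlapping (NP 4 at 15.60, MSC 2 at 15.63), and NP 2 stood well below the other NP arrays. The difference was 0.38 (SE 0.15, limma FDR = 0.390). Without NP 2 it was 0.25.

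Other core subunits overlapped between the groups. Ndufs3, of the Q module, differed by 0.15 (SE 0.12) and by 0.06 without NP 2. Ndufv1, the flavin subunit that binds NADH, differed by 0.08 (SE 0.09) and by 0.02 without NP 2. Ndufv2, its iron-sulphur partner, differed by 0.03 (SE 0.09), and by -0.02 without NP 2. Ndufs7, which carries the cluster nearest to ubiquinone, was the member with the most negative difference of all 46: NP arrays lay between 15.84 and 16.16 and MSC arrays between 15.73 and 15.96, with a difference of -0.13 (SE 0.09, limma FDR = 0.579). The core subunits thus did not all lie on the same side, and none passed the FDR.

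**Figure D2:**
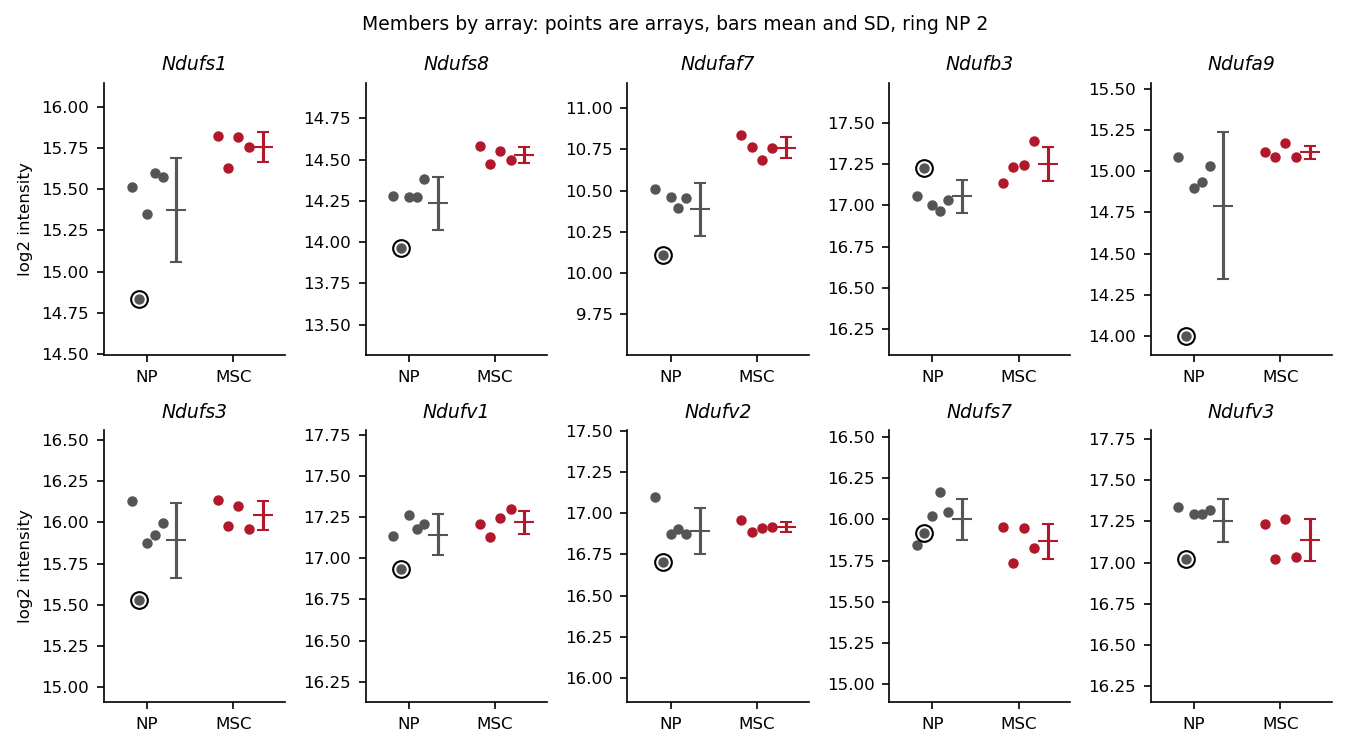
Log2 intensity in each array of nuclear core subunits and of Ndufaf7, Ndufb3, Ndufa9 and Ndufv3, with group mean and SD as bars and NP 2 ringed; every panel covers the same range in log2 units. For Ndufs1, Ndufs8, Ndufaf7 and Ndufa9 the MSC points lie above all NP points, and NP 2 is the lowest array for 7 of the 10 genes.

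Among the 7 accessory subunits of the N module, 3 were higher and 4 lower (median -0.0044). With 1 array left out this median lay on both sides of 0, from -0.04 without MSC 2 to 0.03 without MSC 3. Ndufs4, a small accessory subunit known from Leigh syndrome, was at 10.06, 9.64, 10.06, 10.01 and 9.92 in NP 1 to NP 5 and 10.32, 10.11, 10.07 and 9.78 in MSC 1 to MSC 4. MSC 1 to MSC 3 were above all NP arrays and MSC 4 was below all NP arrays but NP 2, and the difference was 0.13 (SE 0.13, limma FDR = 0.707). It was 0.06 without NP 2, 0.05 without MSC 1 and 0.23 without MSC 4, and 0.29 on slide 1 but -0.04 on slide 2, the slides being those on which the arrays lay. Ndufv3 had a difference of -0.12 (SE 0.10, limma FDR = 0.655). It was -0.17 without NP 2, and -0.08 without MSC 2 or without MSC 4. Its NP arrays lay between 17.30 and 17.34 except for NP 2 at 17.02, and MSC arrays between 17.02 and 17.27. On another probe of Ndufv3, NP 2 was instead the highest of all arrays, at 17.75. The other 5, Ndufs6, Ndufa2, Ndufa6, Ndufa7 and Ndufa12, lay between -0.06 and 0.03.

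Of the 5 accessory subunits at the Q module and its junction with the membrane arm, 2 were higher and 3 lower (median -0.04). Ndufa9, which stabilises that junction, had the third largest difference of the 46 members and also the widest NP spread of the Ndufa family. It read 15.08, 14.00, 14.90, 14.94 and 15.03 in NP 1 to NP 5 and 15.11, 15.09, 15.17 and 15.08 in MSC 1 to MSC 4. All MSC arrays were above all NP arrays, though MSC 4 and NP 1 both read 15.08 at this precision, and NP 2 was far below every other array. The difference was 0.32 (SE 0.20, limma FDR = 0.543), and 0.13 without NP 2. Ndufa5 differed by 0.13 (SE 0.08, limma FDR = 0.540), and Ndufa3, Ndufa8 and Ndufa13 by -0.06 to -0.04.

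Accessory subunits of the membrane arm were centred near 0. The 6 proximal accessory subunits split into 3 higher and 3 lower (median 0.0025), from -0.11 for Ndufc1 to 0.13 for Ndufc2 (0.05 without NP 2). The 11 distal accessory subunits, which include all Ndufb subunits measured and the acyl carrier protein Ndufab1, split into 6 higher and 5 lower (median 0.0019). Ndufb3 stood out among them with 17.05, 17.22, 17.00, 16.96 and 17.03 in NP 1 to NP 5 and 17.14, 17.23, 17.24 and 17.39 in MSC 1 to MSC 4. Here NP 2 was the highest NP array and the only 1 to overlap with MSC, and the difference was 0.19 (SE 0.08, limma FDR = 0.417). Without NP 2 it was 0.24. The most negative distal subunit was Ndufb7, at -0.09 (SE 0.07).

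Assembly factors with the prefix numbered 7, of which Ndufaf2 did not pass the filter: its log2 intensity was 7.96 to 8.21 over the 9 arrays, below the filter limit of 8.75 to 8.87 in every array. Of the other 6, 5 were higher and 1 lower in MSC kidneys (median 0.08). Ndufaf7, a methyltransferase that acts early in assembly, had the smallest p of all members. It read 10.51, 10.11, 10.46, 10.40 and 10.46 in NP 1 to NP 5 and 10.84, 10.76, 10.68 and 10.76 in MSC 1 to MSC 4. The groups were clearly apart, and NP 2 was again the lowest array. The difference was 0.37 (SE 0.09, limma FDR = 0.332), and 0.30 without NP 2. Ndufaf5 differed by 0.11 (SE 0.07) with 3 of 4 MSC arrays above all NP arrays, and Ndufaf3, Ndufaf6 and Ndufaf1 by 0.09, 0.08 and 0.03.

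By name family, the Ndufs genes had a median difference of 0.11, and of 0.06 to 0.13 with 1 array left out (0.06 without MSC 1 and 0.07 without NP 2). The Ndufaf genes had a median of 0.08 (5 of 6 higher), and of 0.05 to 0.13 with 1 array left out (0.05 without MSC 4 or NP 4, 0.13 without NP 1). The Ndufa genes (16 tested, 7 higher), the Ndufb genes (11 tested, 6 higher), the Ndufc genes (2 tested, 1 higher) and the Ndufv genes (3 tested, 2 higher) had medians of -0.01, 0.0019, 0.01 and 0.03. With 1 array left out the Ndufa median was -0.04 to 0.02 and the Ndufb median -0.03 to 0.03. With median scaling, which moved the median of all genes to -0.04, the medians were 0.04 for Ndufs, 0.04 for Ndufaf, -0.07 for Ndufa and -0.08 for Ndufb, and with 75th percentile scaling the Ndufb median was -0.06. No difference between families was tested. Ndufa4, which keeps a complex I name but is now counted as a subunit of complex IV, differed by 0.09 (SE 0.08), and by 0.05 without MSC 4. The 3 genes named as copies, Ndufa10l1, Ndufa7l and Ndufb4l1, differed by 0.05, -0.11 and -0.01. Near-identical copies may share hybridisation with Ndufa10, Ndufa7 and Ndufb4, so the values of these pairs are uncertain. A probe named LOC100911483 on the array, whose accession RefSeq now lists as Ndufa13 and which lies outside the naming rule, differed by -0.06 (SE 0.07), close to -0.04 (SE 0.07) for the probe named Ndufa13.

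**Figure D3:**
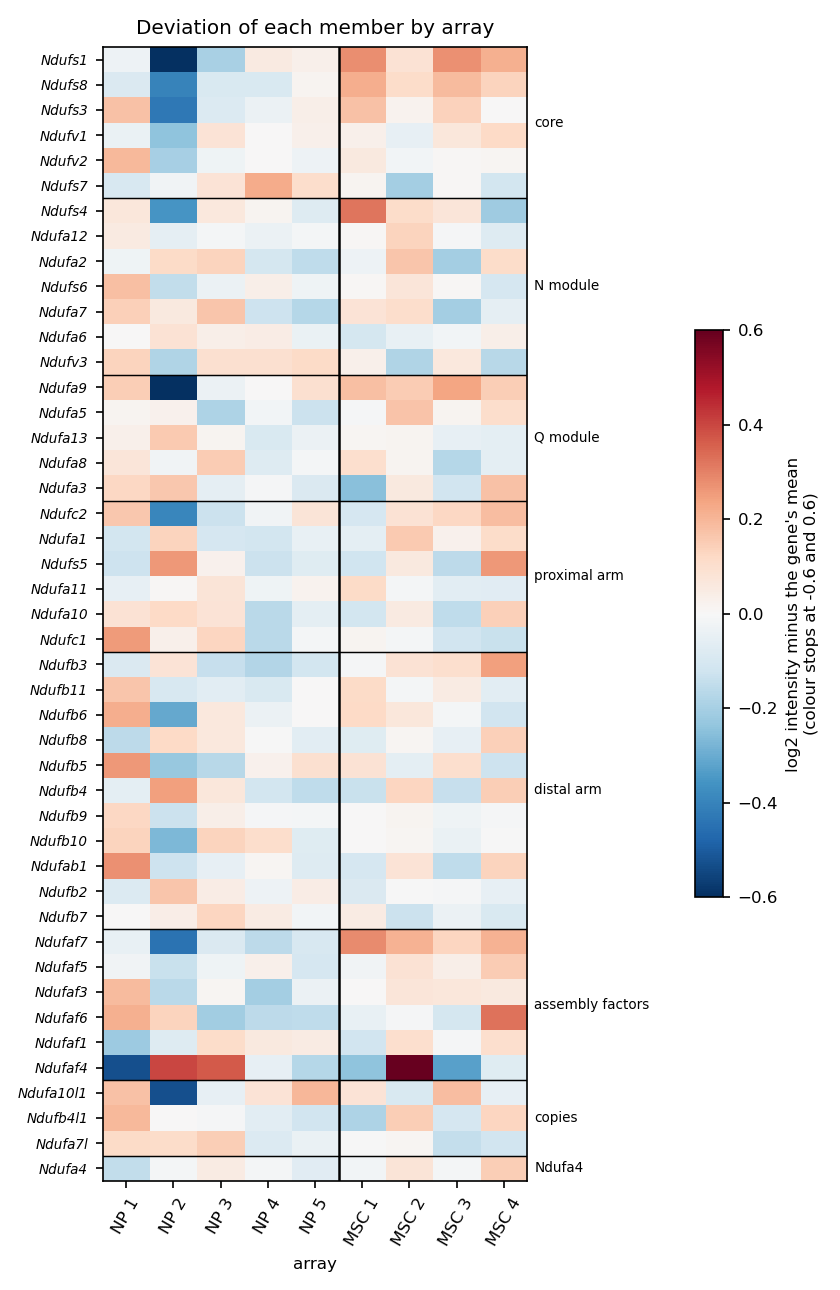
Log2 intensity of members in each of the 9 arrays, as the deviation from that gene's mean over all arrays (blue lower, red higher, colour limited to 0.6 either way), in the order of roles. The lowest values are those of Ndufa9 and Ndufs1 in NP 2, and most membrane arm genes stay pale in both groups.

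The signal of the members was well above background on all 9 arrays for all 46 genes tested. By the probe used for each gene, the brightest members were Ndufb8, Ndufa4 and Ndufb9, with mean log2 intensities of 18.15, 17.53 and 17.38. The dimmest were Ndufaf4, Ndufs4 and Ndufaf1, at 9.43, 10.00 and 10.40. Other probes of Ndufv3, Ndufs4 and Ndufaf4 reached 17.48, 15.36 and 12.15, and intensities of different probes do not give the order of RNA amounts. Probes of the 8 members measured on 10 spots per array had a median SD within groups of 0.10, and those measured on fewer spots 0.13.

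For 10 members, 2 or more probes passed the filter, and for 5 of these (Ndufa10l1, Ndufaf4, Ndufb4, Ndufs5 and Ndufs6) the probes had differences of both signs. The gene's value was that of the probe with the largest variance over all arrays. For Ndufaf7 the other probe, which lies further towards the 3′ end of the transcript, read 9.95, 9.80, 10.06, 9.88 and 9.82 in NP 1 to NP 5 and 9.97, 10.14, 9.92 and 10.06 in MSC 1 to MSC 4. The groups overlapped on that probe, with a difference of 0.12 (SE 0.08, limma FDR = 0.585 over probes). For Ndufs4 the other probe was far brighter, with a mean of 15.36, and differed by 0.07 (SE 0.09). The 4 probes of Ndufaf4, a factor of early assembly, ranged from -0.21 to 0.08.

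**Figure D4:**
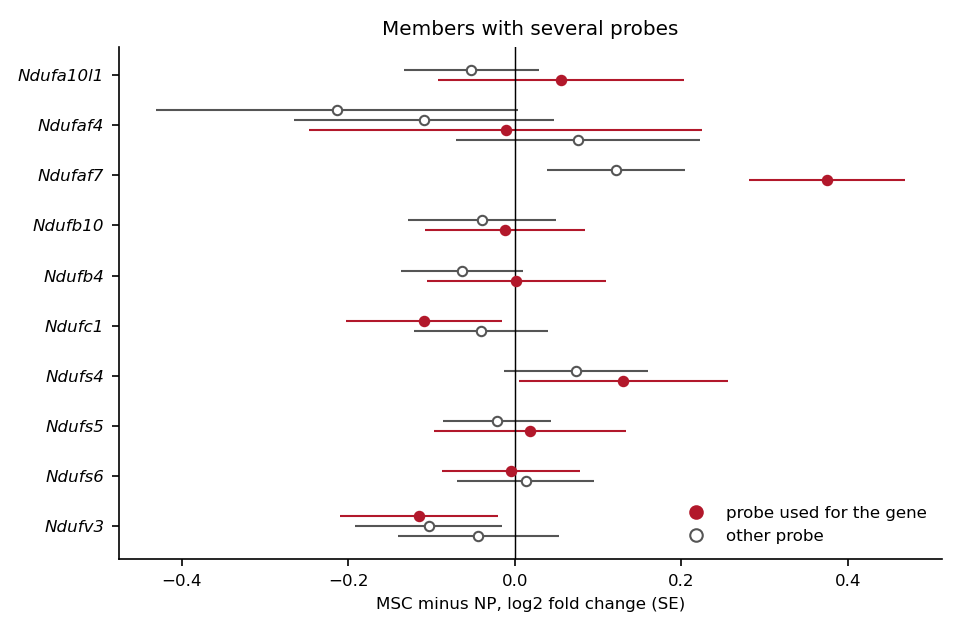
Difference between MSC and NP arrays (log2, with SE) for each probe that passed the filter, in the 10 members with several such probes. Red points mark the probe used for the gene; the probes of Ndufaf7 lie at 0.12 and 0.37, and those of 5 genes fall on both sides of 0.

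NP 2 stood apart from the other NP arrays for these genes. It was the lowest of the 9 arrays for 17 of the 46 members (37.0%), beside 19.6% of all genes, among them the core subunits Ndufs1, Ndufs3, Ndufs8, Ndufv1 and Ndufv2. NP 1 was the lowest for 8.7% of the members and 25.6% of all genes. The count for NP 2 rests on the most variable probe of each gene. On the other probe NP 2 was again lowest for Ndufaf7 and Ndufs6, but not for Ndufs4 and Ndufa10l1, and it was highest for Ndufb10 (15.90). The mean deviation of the core subunits from their own means was -0.29 in NP 2, -0.02 to 0.02 in the other NP arrays, and -0.01 to 0.12 in the MSC arrays. The spread between replicate spots was also highest on this array, with a median CV of 4.93% against 2.96% to 3.37% on the other 8. The next values are each gene's level in NP 2 minus its mean over the other 8 arrays, a different baseline from the means over all arrays above. Members whose probe starts at base 600 of the transcript or later, a limit chosen after the values were seen (17 genes), had a median of -0.20 on that measure, and those with an earlier probe (29 genes) of 0.03. Their ranges overlapped widely, from -1.05 to 0.15 and from -0.45 to 0.45. Ndufs8 and Ndufc2, with early probes, were at -0.45 and -0.44, and Ndufaf6 and Ndufa10, with late ones, at 0.15 and 0.14. A probe at base 600 or later needs a transcript of at least that length, so this split also sorts by transcript length. The distance of the probes to the 3′ end was not measured, and the part of RNA quality in these values was not tested.

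Without NP 2, the same 4 members had an unadjusted limma p under 0.05 (Ndufaf7, Ndufs8, Ndufs1 and Ndufb3) and none was lower, beside 6.03% of all genes higher and 4.11% lower. This fit shares its arrays with the main fit, so it is no separate test of these members. The median over the members was then 0.02, with 25 higher and 21 lower. All MSC arrays were above the 4 remaining NP arrays for 5 members (the 4 above and Ndufa9) and for 3.8% of all genes, and below them for 1 member, Ndufv3, and for 2.93% of all genes. On the other Ndufv3 probes the groups overlapped without NP 2. The brighter had NP arrays at 17.39 to 17.58 and MSC arrays at 17.33 to 17.50. The dimmer had NP arrays at 13.45 to 13.57 and MSC arrays at 13.29 to 13.48.

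The arrays lay on 2 slides, each of which held arrays of both groups. On slide 1 (3 NP and 2 MSC arrays) the difference was 0.44 for Ndufaf7, 0.36 for Ndufs8, 0.49 for Ndufs1 and 0.09 for Ndufb3. On slide 2 (2 NP and 2 MSC arrays), which does not hold NP 2, it was 0.30, 0.20, 0.20 and 0.32. These 4 members were picked by p over the same arrays, so their higher values on both slides are no separate test. For Ndufaf7, Ndufs8 and Ndufs1, with all MSC arrays above all NP arrays, this sign was given in advance. Over all 46 members, 16 were higher on both slides, 7 were lower on both and 23 (50%) had opposite signs, beside 35.5% of all genes with opposite signs.

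Genes of the same pathway without the prefix were read from the same fit. Among the assembly genes for complex I without the prefix, 10 were tested, 8 were higher, 0 had an unadjusted limma p under 0.05, and the median difference was 0.12 (0.09 without NP 2). The largest was that of Timmdc1, a membrane factor of assembly, with 10.91, 10.18, 10.99, 10.94 and 10.72 in NP 1 to NP 5 and 11.05, 11.09, 11.07 and 11.13 in MSC 1 to MSC 4. All its MSC arrays were above all its NP arrays, with a difference of 0.34 (SE 0.16, limma FDR = 0.433), and NP 2 was far below its other arrays. Without NP 2 the difference was 0.20. Tmem70 and Aifm1, which also act in assembly of the respiratory chain, both differed by 0.26 (SE 0.12), and by 0.17 and 0.16 without NP 2.

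Core subunits encoded in mitochondrial DNA varied more between kidneys than the nuclear ones: the SD of their mean deviation over the NP arrays was 0.51, against 0.13 for the nuclear core. Probes for 6 of them (ND1, ND2, ND4, ND4L, ND5 and ND6) were found by their description, since the array names them by transcript. Of these, 5 were higher and 1 lower in MSC kidneys, 0 had an unadjusted limma p under 0.05, and the median difference was 0.19 with a median standard error of 0.28. The mean deviation of the 6 genes was -0.76, 0.66, -1.75e-04, 0.04 and -0.20 in NP 1 to NP 5 and -0.34, 0.36, -0.22 and 0.46 in MSC 1 to MSC 4. NP 1 was lowest and NP 2 highest, so NP 2 was at opposite ends for the mitochondrial and the nuclear core genes, and the groups overlapped throughout. Without NP 1 the median difference of the 6 genes was -0.04.

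The median difference over the other complexes was 0.04 for complex II (0.0071 without NP 2; 4 genes, 0 with an unadjusted limma p under 0.05), 0.09 for complex III (8 genes, 1 such gene, higher), 0.14 for complex IV (14 genes, 2 such genes, both higher, 1 of them named as a pseudogene) and 0.07 for ATP synthase (18 genes, 2 such genes, both higher). No difference between complexes was tested. Among 6 regulators of mitochondrial genes (Ppargc1a, Ppargc1b, Nrf1, Gabpa, Esrra and Tfam) none had an unadjusted limma p under 0.05, and the median was -0.03.

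**Figure D5:**
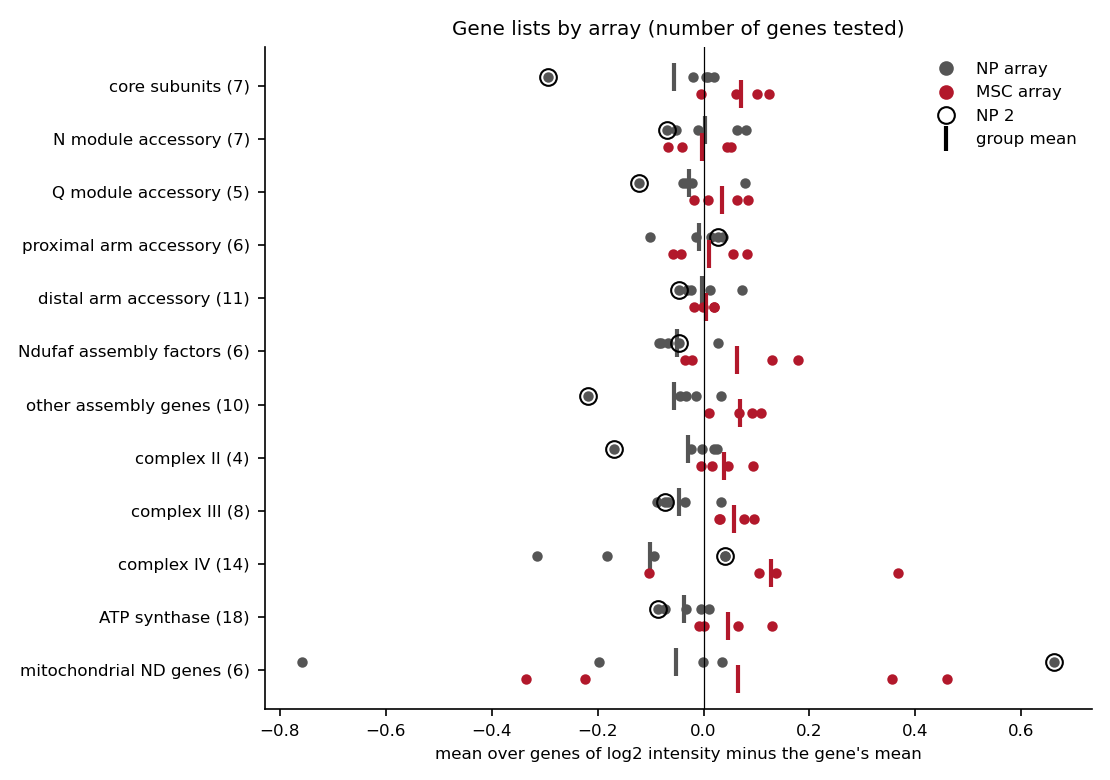
Mean deviation of each gene list from its genes' own means (log2 units), by array, with grey points for NP, red points for MSC, upright bars for group means and a ring around NP 2; the number of genes tested is in brackets. The accessory subunits overlap closely between groups, NP 2 lies lowest for the core subunits at -0.29, and the mitochondrial ND genes range from -0.76 to 0.66 within NP alone.

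Promoter sequences were read from RefSeq (build GRCr8) to show what the members share beside their names. The windows run from 250 bases before to 50 bases after the start, and 41 of the 47 members had 1. Their median GC content was 57.3%, against 51.7% over 33469 promoters of all genes. Searched were 3 motifs on both strands: GCGCANGCG for NRF1, CCGGAAG for ETS factors such as GABPA, and AAGGTCA for oestrogen-related receptors, factors known for control of mitochondrial genes. The NRF1 letters occurred in 11 of 41 member promoters (26.8%) and in 5.8% of all promoters. The ETS letters occurred in 8 (19.5%) and in 8.75% of all. The receptor letters occurred in 4 (9.76%) and in 4.61% of all. The stretches that follow show the match in capitals with up to 15 bases on either side, cut at the start site, for the 2 members with an unadjusted p under 0.05 that hold any of the motifs (Ndufs8 and Ndufs1) and for 3 that hold the NRF1 letters and did not reach it.
Ndufs8, ETS, chr1:210573699-210573725, minus strand: gaacttaggctccgcCTTCCGGttgac
Ndufs1, ETS, chr9:72073783-72073819, minus strand: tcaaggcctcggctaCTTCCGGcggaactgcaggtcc
Ndufa5, NRF1, chr4:53971244-53971282, minus strand: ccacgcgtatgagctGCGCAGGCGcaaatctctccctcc
Ndufs5, NRF1, chr5:141264508-141264546, minus strand: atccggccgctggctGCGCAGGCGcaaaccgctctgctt
Ndufv3, NRF1, chr20:9613732-9613770, plus strand: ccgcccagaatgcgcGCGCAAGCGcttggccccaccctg
Ndufs8 and Ndufs1, at 0.29 and 0.38, hold the ETS letters in reverse. The other ETS holders, Ndufa1, Ndufaf1, Ndufa2, Ndufa13, Ndufa6 and Ndufb7, were at 0.10, 0.03, 0.02, -0.04, -0.06 and -0.09. Members with the ETS letters thus lay on both sides of 0 as well. Ndufa5, Ndufs5 and Ndufv3, at 0.13, 0.02 and -0.12, hold the NRF1 letters and lie on both sides of 0. Ndufaf7 and Ndufb3 hold none of these letters in the window.

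Markers of kidney cell types were read beside these values, since bulk RNA cannot tell fewer cells of a type from less RNA per cell. The 8 proximal tubule markers all passed the filter, as the label kidney requires, and summed to 1078050 to 1360690 intensity units in NP and 1277080 to 1427250 in MSC, with 2 of 8 at an unadjusted limma p under 0.05, both higher (1 of 8 without NP 2). Thick ascending limb genes were higher at that limit for 3 of 5, distal convoluted and connecting tubule genes for 3 of 4 tested, and intercalated cell genes for 3 of 5. Their sums were 267101 to 477071, 11668 to 19063 and 22664 to 38268 in NP and 351763 to 551601, 21423 to 27386 and 36974 to 46206 in MSC. NP 2 was the NP array with the highest thick ascending limb sum (477071) and with the lowest distal convoluted and connecting tubule (11668) and intercalated cell sums (22664). Without it these lists again had 3 genes each at that limit. Principal cell markers had 1 of 4, higher, with sums of 313683 (NP 2) to 344110 in NP and 309388 to 465169 in MSC. Podocyte and endothelial markers had 0 of 4 tested each at that limit, with Synpo below the filter. Podocyte sums were 22001 to 38742 in NP and 17306 to 31788 in MSC, and endothelial sums 20588 to 35354 (NP 2) in NP and 21508 to 35303 in MSC. Leukocyte markers also had 0 of 4 tested, with sums of 2845 to 4125 in NP and 3393 to 4527 in MSC, and Cd3e did not pass the filter. Fat markers had 2 of 4 tested, both higher, with sums of 4905 to 8816 in NP and 5406 to 51831 in MSC, where Plin1 and Lep did not pass the filter. All 4 skeletal muscle markers failed the filter. MSC markers had 1 of 4 tested, higher, with sums of 6939 to 13706 (NP 2) in NP and 10171 to 17221 in MSC, and Thy1 did not pass the filter. The part of cell composition in the differences of complex I genes was not tested.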

How the data were processed

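Total RNA of each kidney was amplified by the authors, and the labelled copy RNA was hybridised to 1-colour Agilent arrays. Per the file headers, spot intensities were extracted with Agilent Feature Extraction 10.7.3.1 against rn4. The authors also deposited a table of log2 values. It correlated with the values used here at r = 0.99990 to 0.99997 per array and served as an alternative. Mean spot intensity was log2 transformed and normalised by cyclic loess in limma 3.58.1 (R 4.3.3), following the study's methods. Outlier spots were dropped and spots of a probe averaged. A probe was kept if it exceeded 1.1 times the 95th percentile of the 308 negative control spots (log2) on at least 4 arrays, leaving 15628 of 30367 probes. The most variable probe stood for each gene. Limma's model with empirical Bayes compared MSC with NP, with Benjamini-Hochberg FDR over 13764 genes. Between 65.6% and 74.3% of gene spots were well above background per array; the number of arrays limits precision.

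The members and lists were chosen with earlier results of these data known. Named were core subunits, the 3 brightest and 3 dimmest members, the 8 with the smallest p, the 3 most negative, Ndufa4, members that failed the filter and those with probes of both signs; other genes were named after their values were seen. 1 core subunit is not reported here. The labels number the samples as replicates; p-values measure only the spread between them. A further MSC array named in the study was not analysed here. The model was tested on simulated data. Alternatives covered background correction, normalisation, filter, probe choice, array weights, slide and replicate blocks, the prior, the deposited values and leaving out each array.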

Additional observations from a re-analysis of the deposited data

Results flagged for a closer look

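In 5 of 56 groups of arrays examined, 1 array lay further from its neighbours than Dixon's 95% limit allows, where chance gives about 1 in 20 groups, or 2.8 here. All 5 were the NP group with NP 2 low. The gap to the nearest array, as a share of the group's range, was 0.745 for Ndufs8, 0.719 for Ndufaf7, 0.828 for Ndufa9, 0.872 for Ndufv3 and 0.875 for the mean deviation of the 7 core subunits. NP 2 read 13.96 for Ndufs8, 10.11 for Ndufaf7, 14.00 for Ndufa9, 17.02 for Ndufv3 and -0.29 for the core subunits. Leaving it out, the difference between MSC and NP was 0.23 for Ndufs8, 0.30 for Ndufaf7, 0.13 for Ndufa9 and -0.17 for Ndufv3. For Ndufv3 these values hold for the probe used for the gene. On another of its probes NP 2 was the highest of all arrays (17.75), and on its dimmest probe the lowest (13.17). These 5 groups share an array and are not independent of each other.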

How the results depend on the processing

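No complex I gene passed an FDR under 0.05 under any of the 24 alternatives with a test, and their number at that limit stayed at 0. Over all genes, array weights gave 2 genes at that limit, and the other alternatives with a test gave 0. Ndufaf7 and Ndufs8 had an unadjusted limma p under 0.05 in 23 of the 24, Ndufs1 in 19 and Ndufb3 in 11, all higher in MSC kidneys throughout. The count of members higher at that limit was 4 as reported, 0 with median scaling, and 2 to 4 with 1 array left out (2 without NP 3, MSC 3 or MSC 4); the count lower was 0, and 1 (Ndufs7) with array weights, while leaving out 1 array gave 0. The median over the members was 0.02 as reported and 0.0048 to 0.042 with 1 array left out. It was -0.060 with median scaling, -0.021 with 75th percentile scaling and -0.0093 with quantile normalisation. Under these settings the median of all genes was -0.040, -0.0037 and -0.0059. Correlations of same-numbered arrays lay between -0.35 and 0.33. Differently numbered arrays were not compared, so these values cannot show whether the replicate numbers pair the kidneys. With a replicate block the count higher was 3, the median 0.012 and the number at the FDR limit 0. Differences near 0 changed sign, none of them past a threshold. With median scaling the value was -0.016 for Ndufv1, -0.063 for Ndufv2, -0.084 for Ndufb8, -0.0088 for Ndufa4, -0.034 for Ndufa10l1, -0.15 for Ndufb4 and -0.11 for Ndufs5. With 75th percentile scaling it was -0.037 for Ndufv1, -6.65e-04 for Ndufv2, -0.046 for Ndufb8, 0.0094 for Ndufaf4, -0.0079 for Ndufa10l1, -0.057 for Ndufb4 and -0.031 for Ndufs5. With quantile normalisation it was -0.012 for Ndufv2, -0.039 for Ndufb8, -0.016 for Ndufb4 and -0.0080 for Ndufs5. With array weights it was 4.59e-04 for Ndufb9, 0.061 for Ndufaf4, -0.030 for Ndufaf1, -0.052 for Ndufa10l1 and 0.0066 for Ndufs6. With the processed signal it was -0.016 for Ndufb4 and 0.0039 for Ndufs6, with the mean of probes -0.031 for Ndufb4, -0.0018 for Ndufs5 and 0.0044 for Ndufs6, and with the brightest probe 0.076 for Ndufaf4 and 0.013 for Ndufs6. It was -0.0018 for Ndufb4 with normexp correction, -0.036 for Ndufb4 with the replicate block and 0.017 for Ndufaf4 with the slide as a block. With 1 array left out, values ranged from -0.020 to 0.079 for Ndufv2, -0.029 to 0.049 for Ndufb8, -0.038 to 0.025 for Ndufb9, -0.22 to 0.095 for Ndufaf4, -0.016 to 0.078 for Ndufaf1, -0.071 to 0.11 for Ndufa10l1, -0.047 to 0.063 for Ndufb4, -0.065 to 0.085 for Ndufs5 and -0.042 to 0.040 for Ndufs6. The cause of these changes was not tested.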
